A study of Mus musculus with 23 samples.

Results

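Gene expression was compared between mouse RNA libraries made from 0.5 ng and from 1 ng of total RNA. The 6 libraries, 3 at each input, were taken by their input labels from the 23 libraries of a study of a low-input protocol called EASY-RNAseq, and every gene of the count table was considered. Both groups carry the labels strain C57, an age of 6 to 18 weeks and the cell line name raw 264.7, a macrophage line, and neither carried a treatment or an altered gene. The design text gives mouse spleen as the source of the RNA. All 6 libraries held immunoglobulin, haemoglobin and T cell genes, with Ighm, the IgM heavy chain, among the genes with the most counts, which goes against a pure macrophage line, so the material is called spleen RNA here. The labels do not say whether the 3 libraries of an input came from separate animals or extractions, so the p-values measure the spread between these libraries, which may be technical. The 3 libraries at 5 ng of the same material served as an outside reference.

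In this protocol reverse transcription starts from an oligo-dT primer on the poly(A) tail, a second strand is made, and the Tn5 transposase cuts the double-stranded cDNA and attaches adapters. The labels state that 1 ng of double-stranded DNA entered the Tn5 reaction in every library. Few starting molecules make rare transcripts appear or drop out by sampling, while enzymes that copy or amplify some sequences better than others shift many transcripts together. The spleen holds B cells, T cells, macrophages, plasma cells and red cell precursors, and its abundant messages include those of immunoglobulins, ribosomal proteins and the mitochondrial genome.

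Depth was alike. The 0.5 ng libraries held 4092084, 4230190 and 3702988 counts, and the 1 ng libraries 4462932, 4477814 and 3665052. Between 61.0% and 64.4% of the nonzero counts in each of the 6 libraries were even, so a fragment may have added both of its mates to the count.

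Few single genes differed between the inputs, and several of those that did belonged to a few families. Of 11976 genes tested, 173 (1.44%) differed at an adjusted p under 0.05 in edgeR's quasi-likelihood test (p-values adjusted by Benjamini-Hochberg), 90 of them (0.752%) higher and 83 (0.693%) lower at 0.5 ng. Without adjustment, 1769 of the 11976 genes had a p under 0.05. DESeq2 called 523 of 19395 genes, 296 higher and 227 lower. Counts of list members given below are to be read beside these shares. The 19395 include genes with few counts that edgeR's filter leaves out. The DESeq2 share is therefore a looser background for lists of well expressed genes. The median log2 fold change over all genes was -0.0023. Most called changes were small. Of the higher genes, 40 changed by less than 1.5-fold, 28 by 1.5 to 2-fold and 22 by more. Of the lower genes, 55 changed by less than 1.5-fold, 10 by 1.5 to 2-fold and 18 by more. In CPM, each count scaled to the total of its library, the libraries of the 2 inputs did not overlap for 88 of the 90 and for 83 of the 83. The test used these same libraries, so this separation follows largely from being called and is no further support. Of all tested genes, 9.59% were separated upwards and 9.92% downwards. The 5 ng libraries, which took no part in the test, had a mean nearer to the 1 ng mean for 78 of the 90 higher genes (86.7%) and 78 of the 83 lower genes (94.0%), against 61.1% of all tested genes. The called genes were chosen for a difference between the inputs, and the 0.5 ng libraries varied more. Part of this excess can follow from that choice, so the 61.1% is not a matched background. The number called depended on single libraries. It fell to 63, 36 and 124 without replicate 1, 2 or 3 at 0.5 ng and to 21 and 24 without replicate 1 or 2 at 1 ng, and was 194 without replicate 3 at 1 ng. When the 0.1 and 5 ng libraries shared the estimate of spread, 4 genes were called, all of them among the 173.

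**Figure D1:**
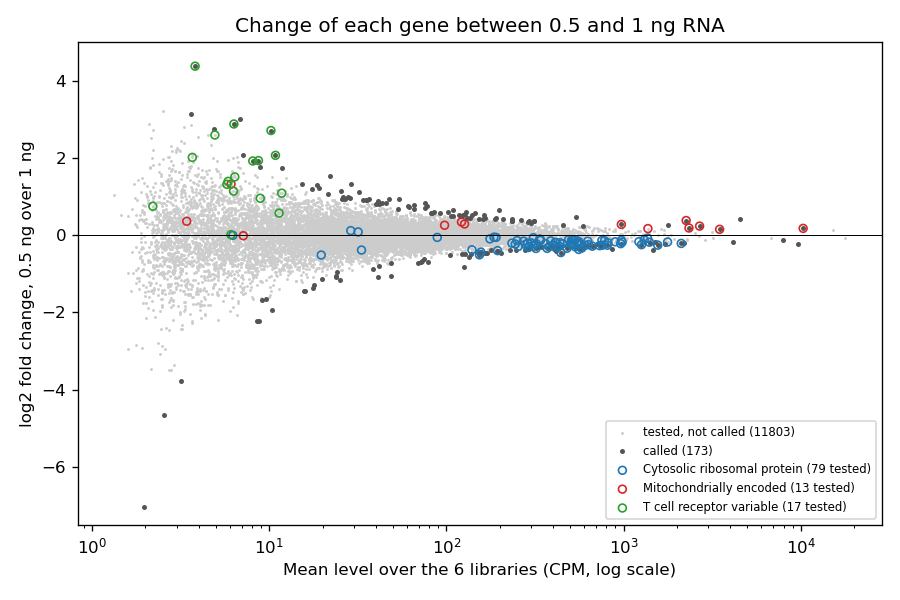
Each point is 1 of the 11976 tested genes, with its mean level over the 6 libraries (CPM, log scale) across and its log2 fold change, 0.5 ng over 1 ng, upwards. Dark points are the 173 called genes and rings mark 3 gene families: 77 of 79 ribosomal protein genes lie below 0, 12 of 13 mitochondrially encoded genes above 0, and T cell receptor variable genes at low levels and further above 0.

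The called genes differed in base composition. Genes higher at 0.5 ng had a median GC content of 43.4% in their longest annotated transcript, genes lower at 0.5 ng 53.2%, and genes not called 49.7%. The median length was 4312 bases for the higher genes, 2853 for the lower genes and 3439 for the rest. When 9329 genes with a mean of at least 10 CPM were put in 10 bins of about equal size by GC content, the median log2 fold change went from 0.14 in the bin with the least GC to -0.11 in the bin with the most. The lowest bin held 30 higher and 0 lower genes, and the highest bin 1 higher and 16 lower genes. Across those 9329 genes, Spearman's rho of the log2 fold change was -0.272 with GC content and 0.136 with length. Genes are not independent replicates, and all points share the same 6 libraries.

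**Figure D2:**
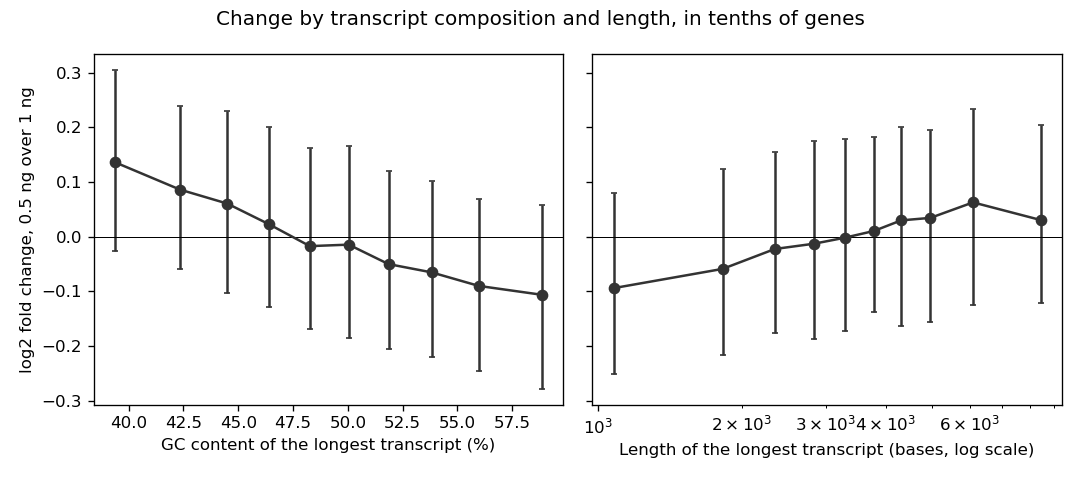
Points are the median log2 fold change, 0.5 ng over 1 ng, in 10 bins of 9329 genes ordered by the GC content (left, %) or the length (right, bases, log scale) of the longest transcript, and bars span the interquartile range of genes. The medians fall from 0.14 to -0.11 along GC content and rise from -0.09 at the short end of the length scale.

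Coding sequences of some of the genes described below illustrate differences in base composition. The first 99 coding bases are given 5′ to 3′ from the GENCODE M21 annotation of the mouse genome, with G and C in capitals. Rps19 is shown as a ribosomal protein gene that fell, and mt-Nd4 and Zfp518a as genes that rose. Trbv13-1 is shown as a gene that rose and has a GC content near the average of all genes.
Rps19: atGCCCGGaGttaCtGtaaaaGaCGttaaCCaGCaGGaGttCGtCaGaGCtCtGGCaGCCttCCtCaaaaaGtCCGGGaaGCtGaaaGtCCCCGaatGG
mt-Nd4: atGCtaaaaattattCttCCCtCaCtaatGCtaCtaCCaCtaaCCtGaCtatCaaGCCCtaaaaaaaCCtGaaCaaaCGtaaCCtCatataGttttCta
Zfp518a: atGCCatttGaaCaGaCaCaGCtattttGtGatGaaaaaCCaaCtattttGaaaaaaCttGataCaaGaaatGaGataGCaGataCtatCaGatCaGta
Trbv13-1: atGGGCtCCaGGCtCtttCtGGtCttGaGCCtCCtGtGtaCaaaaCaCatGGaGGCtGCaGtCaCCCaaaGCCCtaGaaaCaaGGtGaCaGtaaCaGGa
G and C make up 52.5% of these bases in Rps19 (chromosome 7), 34.3% in mt-Nd4 (chromosome M), 31.3% in Zfp518a (chromosome 19) and 51.5% in Trbv13-1 (chromosome 6). Over the whole coding sequence they make up 56.3%, 35.6%, 37.4% and 50.7%, in that order. Rpl41 and Rps7, ribosomal protein genes that also fell, have 53.3% and 49.7% over theirs, less than the Rps19 shown. Zfp518a, a zinc finger gene picked for this display after its values were seen, was at 113, 95.3 and 81.0 CPM at 0.5 ng and at 62.1, 49.8 and 51.0 CPM at 1 ng. All 3 libraries at 0.5 ng were above all 3 at 1 ng, by a log2 fold change of 0.83 ± 0.16 (SE, adjusted p = 0.0036).

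The same tilt was present in whole libraries. Weighted by counts, the mean GC content of the transcripts was 48.54% in replicates 1 and 2 and 48.53% in replicate 3 at 0.5 ng, and 48.94%, 49.04% and 48.66% in replicates 1, 2 and 3 at 1 ng. Replicate 3 at 1 ng was the closest of its group to the 0.5 ng libraries, and the groups did not overlap. The means were 48.54% ± 0.0096 and 48.88% ± 0.20 (SD, n = 3 each), and the 3 libraries at 5 ng averaged 48.95% ± 0.0049. The exact permutation test (two-sided) gave p = 0.1, the smallest that 3 against 3 allows. Without mitochondrially encoded genes and the Gm10800 group the means were 48.89% at 0.5 ng and 49.18% at 1 ng.

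Ribosomal protein genes, which encode the protein part of the cytosolic ribosome, were lower at 0.5 ng. Of 79 tested genes, 24 fell, against 0.693% of all tested genes, and 0 rose in edgeR's test. At an unadjusted p under 0.05, 58 of the 79 were lower and 0 higher, against 1769 of 11976 tested genes in either direction. DESeq2 called 41 of 83 lower and 0 higher, against 227 of 19395 genes lower. In all, 77 of the 79 had a log2 fold change below 0, 56 had all 0.5 ng libraries below all 1 ng libraries, and the median was -0.21. Their summed share of the counts was 3.89%, 3.92% and 3.97% at 0.5 ng and 4.59%, 4.56% and 4.44% at 1 ng. The 0.5 ng libraries were all lower, with means of 3.93% ± 0.0389 and 4.53% ± 0.0767 (SD, n = 3 each), and the 5 ng libraries averaged 4.80% ± 0.0416. The labels set these groups apart by the amount of input RNA, not by cells. Whether the number of cells of a type or the RNA per cell differed between the libraries was not tested. Bulk RNA cannot tell those apart. Reads of a ribosomal protein gene can be split with its processed pseudogenes, so single values of this family are uncertain.

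Rpl41, which encodes a very short basic protein of the large subunit, was at 382, 363 and 379 CPM at 0.5 ng and at 521, 517 and 494 CPM at 1 ng. Every 0.5 ng library was lower, by a log2 fold change of -0.45 ± 0.07 (SE, adjusted p = 0.000258). The largest fall among the 24 was that of Rpl36, at 141, 108 and 132 CPM against 181, 193 and 166 CPM, without overlap (log2 fold change -0.51 ± 0.12, adjusted p = 0.0135). Rps19, a small-subunit protein needed for red cell formation in humans, was at 482, 563 and 499 CPM at 0.5 ng and at 637, 698 and 606 CPM at 1 ng. Its groups did not overlap, and its log2 fold change was -0.33 ± 0.07 (adjusted p = 0.00787). Rpl4, the ribosomal protein gene with the most counts, fell least among the 24, from 2271 ± 89.8 to 1963 ± 45.1 CPM (SD, n = 3 each; log2 fold change -0.21 ± 0.04, adjusted p = 0.00641). Rpsa, the small-subunit protein also known as the laminin receptor, fell by 0.26 on the log2 scale (SE 0.05, adjusted p = 0.00326), from 1697 to 1422 CPM. With per-library offsets for GC content and length, 11 of the 79 were called and the median was -0.14. Without replicate 1, 2 or 3 at 0.5 ng, 7, 4 and 16 were called, and without replicate 1, 2 or 3 at 1 ng, 2, 3 and 27.

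Housekeeping genes moved in both directions. Eef2, an elongation factor that moves the ribosome along the message, was at 3922, 3982 and 3799 CPM at 0.5 ng and at 4429, 4679 and 4101 CPM at 1 ng. The groups did not overlap, with replicate 3 the lowest of the 1 ng libraries (log2 fold change -0.18 ± 0.04, adjusted p = 0.00852). Eef1a1, the elongation factor that delivers aminoacyl-tRNA, was 1.09-fold lower (adjusted p = 0.021), at 7629.8 ± 227 against 8276 ± 139.8 CPM (SD, n = 3 each). Ppia, a prolyl isomerase often used as a reference gene, was 1.24-fold lower (adjusted p = 0.0389), at 298 ± 24.5 against 369 ± 5.32 CPM. These were the 3 housekeeping genes that fell of 18 tested, and B2m was the 1 that rose, against 0.693% and 0.752% of all tested genes.

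Nuclear genes for oxidative phosphorylation, the respiratory chain subunits made in the cytosol, had a median log2 fold change of -0.17. Of 72 tested, 57 were below 0 and 15 had all 0.5 ng libraries lower, against 9.92% of all tested genes, but 0 passed edgeR's test. At an unadjusted p under 0.05 there were 6 of the 72, all lower, against 1769 of 11976 tested genes in either direction. DESeq2 called 2 of 76 lower, against 227 of 19395 genes. Their median transcript was 1003 bases long, and that of the ribosomal protein genes 1106 bases, against 3442 bases over all tested genes. Their median GC content was 50.2%, and that of the ribosomal protein genes 50.9%, near the 49.7% over all tested genes. Mitochondrial ribosomal proteins had a median of -0.04 with 0 of 76 called by edgeR, 1 by DESeq2 and 3 at an unadjusted p under 0.05. The last 2 shares were below those of all genes, 523 of 19395 in DESeq2 and 1769 of 11976 unadjusted.

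The mitochondrially encoded genes, which supply the core respiratory subunits and are very poor in GC, went up. Of 13 tested, 6 rose, against 0.752% of all tested genes, and 0 fell in edgeR's test or in DESeq2. At an unadjusted p under 0.05 there were 10 higher and 0 lower, against 1769 of 11976 tested genes in either direction. The family had a median log2 fold change of 0.26, with 12 of 13 above 0. The risers were mt-Nd1, mt-Nd4, mt-Nd5 and mt-Nd6, all subunits of complex I, mt-Cytb of complex III and mt-Co1 of complex IV. Their family held 2.61%, 2.52% and 2.53% of counts at 0.5 ng and 2.16%, 2.104% and 2.36% at 1 ng. No library overlapped between the groups, although replicate 3 at 1 ng stood nearest to 0.5 ng (means 2.55% ± 0.0480 and 2.21% ± 0.136, SD, n = 3 each). The 5 ng libraries averaged 2.27% ± 0.0215.

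Expression of mt-Nd4 was 2667, 2524 and 2470.2 CPM at 0.5 ng and 1884, 1844 and 2146 CPM at 1 ng. All 0.5 ng libraries were higher, and the log2 fold change of 0.38 ± 0.05 (SE, adjusted p = 5.11e-07) was the largest of the 6. The most abundant, mt-Co1, was at 11184, 10736 and 10967 CPM against 9562, 9207 and 10257 CPM, without overlap (log2 fold change 0.18 ± 0.03, adjusted p = 0.00019). For mt-Nd5 the means were 2908 ± 66.4 and 2464 ± 105 CPM (log2 fold change 0.24 ± 0.04, adjusted p = 0.00067). For mt-Nd6, which lies on the other strand of the mitochondrial genome from the rest, they were 1066 ± 25.8 and 877 ± 93.0 CPM (log2 fold change 0.28 ± 0.06, adjusted p = 0.0102). Strand was not stated for the counting, so reads of overlapping strands cannot be separated for mt-Nd6. With offsets for GC content and length 2 of the 13 were called and the median was 0.09. Leaving out replicate 1 or 2 at either input gave 3 calls each time, leaving out replicate 3 at 0.5 ng gave 5, and leaving out replicate 3 at 1 ng gave 7.

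Abundant blood and lymphoid messages changed modestly. Igkc, the constant region of the kappa light chain, was at 8990.0, 9063 and 8589.8 CPM at 0.5 ng and at 10198, 10589.5 and 10132 CPM at 1 ng. The groups did not overlap, and the fall was 1.16-fold (log2 fold change -0.22 ± 0.03, adjusted p = 5.11e-07). Ighm had a mean of 17421 ± 243 against 18334 ± 620.2 CPM (log2 fold change -0.07 ± 0.02, adjusted p = 0.0691), which did not pass. Hbb-bs, an adult beta globin, was at 1334, 1282 and 1239.8 CPM against 1664, 1710.2 and 1606 CPM. The 0.5 ng libraries were all lower (log2 fold change -0.37 ± 0.05, adjusted p = 3.42e-06). Hba-a1, an adult alpha globin, was 1.29-fold lower (adjusted p = 0.00076), at 749 ± 59.9 against 963 ± 75.3 CPM. Globin copies are nearly identical, so counts of single copies are uncertain, and Hbb-bt, the neighbouring adult beta globin, had a log2 fold change of -0.01 ± 0.08 (adjusted p = 0.974). Of 17 erythroid genes tested, 3 fell (Hbb-bs, Hba-a1 and Ermap), against 0.693% of all tested genes. DESeq2 called 4 of the 17 lower, against 227 of 19395 genes.

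Among 19 actin cytoskeleton genes 3 fell, against 0.693% of all tested genes. Tmsb4x, which holds actin monomers, was at 2058, 2069 and 2004 CPM at 0.5 ng and at 2313, 2361 and 2407 CPM at 1 ng. These groups did not overlap (log2 fold change -0.21 ± 0.04, adjusted p = 0.00569). Coro1a, a coronin of leukocytes, was 1.17-fold lower (adjusted p = 0.0185), at 1589 ± 13.6 against 1852 ± 209.8 CPM, and Flna, an actin crosslinker, was the third. In the antigen presentation list of 15 genes H2-DMa alone passed, 1.36-fold lower at 140.5 ± 14.1 against 191 ± 15.3 CPM (adjusted p = 0.0236). B2m, the light chain of MHC class I, rose. Its levels were 1963, 1990.5 and 1880.4 CPM at 0.5 ng and 1592, 1539 and 1742 CPM at 1 ng, without overlap (log2 fold change 0.26 ± 0.05, adjusted p = 0.00199). Of 39 splicing factor genes 1, Srsf10, rose, against 0.752% of all tested genes. It was 1.34-fold higher, at 185 ± 5.23 against 137 ± 7.12 CPM (adjusted p = 0.0297). The transcripts of B2m and Srsf10 had 41.2% and 41.4% GC, and those of Coro1a and H2-DMa 58.0% and 55.1%. That of Tmsb4x, which fell, had 47.5%, below the median of 49.7% over all tested genes.

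**Figure D3:**
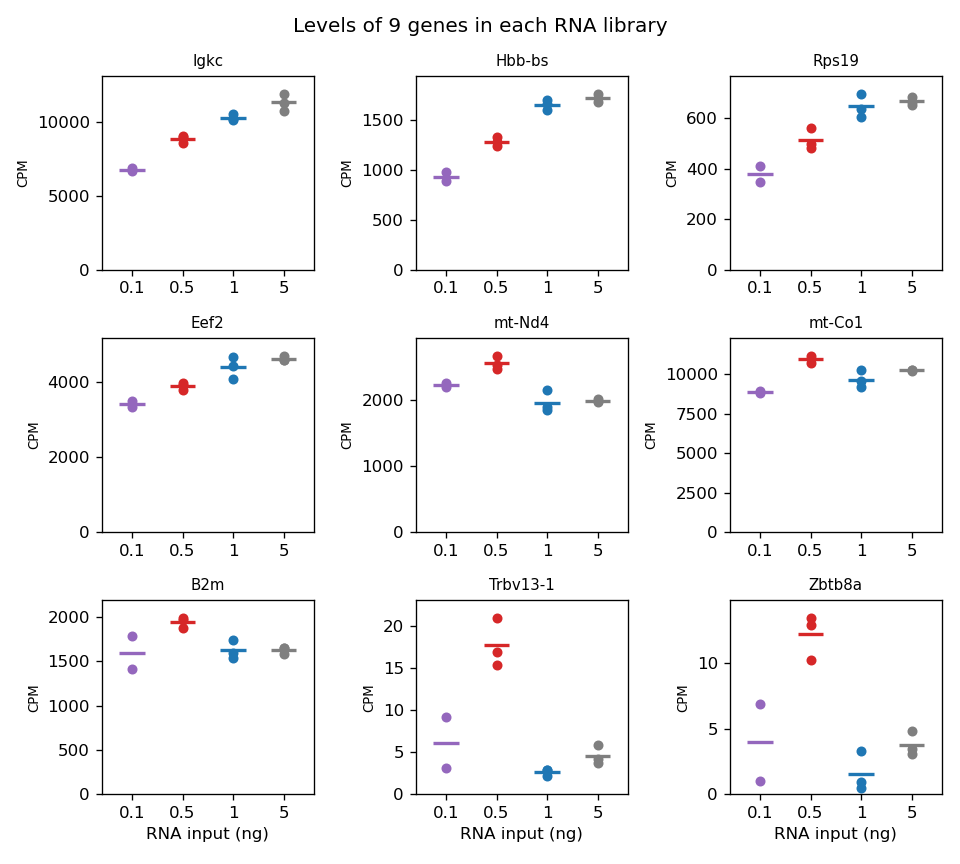
Levels (CPM, linear axes from 0) of Igkc, Hbb-bs, Rps19, Eef2, mt-Nd4, mt-Co1, B2m, Trbv13-1 and Zbtb8a in each RNA library by input (ng), with 1 point a library and a line at the mean. At 0.5 ng the points of the first 4 genes lie below those at 1 ng and the points of the other 5 lie above them, and in every panel the 5 ng mean is nearer to the 1 ng mean.

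Variable genes of the T cell receptor beta chain were higher at 0.5 ng. DNA rearrangement in a T cell joins a variable segment to a joining segment, and RNA splicing adds the constant region. A mature receptor message thus carries both a variable segment and a constant region. Of 136 variable genes of any chain listed, 17 passed the filter on low counts, and 6 of the 17 rose, against 0.752% of all tested genes. All 6 were beta chain segments (Trbv1, Trbv13-1, Trbv13-3, Trbv16, Trbv29 and Trbv31). Some passed the filter only through the 0.5 ng libraries, so the direction of the genes that passed is partly set by it. Without the filter, 100 variable genes of any chain had a median log2 fold change of 0.96. Of these, 7 were called higher, against 99 of 19395 genes. In the same fit 738 olfactory and vomeronasal receptor genes, few of which passed the filter, had a median of 1.44 with 1 called. An unfiltered median above 0 was thus not particular to the T cell receptor. Counting every Trbv gene of the table, tested or not, 21 of 22 had a higher mean at 0.5 ng and 13 of 22 had all 0.5 ng libraries above all 1 ng libraries, against 9.59% of all tested genes. Reads of closely related variable segments can be split between them, so the sum is firmer than a single segment.

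Summed over the 22 genes, Trbv was at 210.4, 184.6 and 159.1 CPM at 0.5 ng and at 60.5, 65.2 and 66.3 CPM at 1 ng. The lowest library at 0.5 ng was above the highest at 1 ng, and the means of 184.7 ± 25.7 and 64.0 ± 3.08 CPM (SD, n = 3 each) differed 2.89-fold. The exact permutation test (two-sided) gave p = 0.1, the smallest possible with 3 against 3. At 5 ng the sum was 62.4 ± 3.19 CPM, close to that at 1 ng.

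Constant genes of the same chain were not higher. Trbc1 and Trbc2 together were at 308, 291 and 278 CPM at 0.5 ng and at 341, 331 and 326 CPM at 1 ng. Every library was lower at 0.5 ng, and neither gene passed edgeR's test. The ratio of Trbv to Trbc ran from 0.572 to 0.683 at 0.5 ng, from 0.177 to 0.204 at 1 ng and from 0.192 to 0.197 at 5 ng. In the 12 sorted T cell libraries of the study it ran from 0.163 to 0.247. The 2 libraries at 0.1 ng had 0.196 in one and 0.577 in the other. The ratio at 0.5 ng was thus above the range of both larger inputs and of the sorted T cells (exact permutation test against 1 ng p = 0.1).

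For the alpha chain the same quantities moved less. Of 108 Trav genes, 42 had a higher mean at 0.5 ng and 30 a lower one. All 0.5 ng libraries were above all 1 ng libraries for 6 of the 108, against 9.59% of all tested genes. Only 72 of the 108 had a count in these libraries and 1 passed the filter, so these shares do not rest on like genes. Summed Trav was at 47.7 ± 5.76 CPM at 0.5 ng and 31.9 ± 2.14 CPM at 1 ng, and Trac, its constant gene, at 174 ± 17.4 and 192 ± 4.12 CPM. The ratio of Trav to Trac lay between 0.259 and 0.286 at 0.5 ng and between 0.152 and 0.174 at 1 ng, and its range at 5 ng was 0.140 to 0.170. Beta joining genes (Trbj) summed to 18.1 ± 4.05 CPM at 0.5 ng and 12.4 ± 7.04 CPM at 1 ng (exact permutation p = 0.5). Alpha joining genes (Traj) summed to 43.0 ± 4.87 and 47.1 ± 1.68 CPM (exact permutation p = 0.3), and edgeR called 0 joining genes. The signalling chains of the receptor complex, the CD3 genes, summed to 316 ± 14.4 and 329 ± 12.5 CPM. The T cell list as a whole held 0.390% ± 0.00694 of counts at 0.5 ng and 0.400% ± 0.00437 at 1 ng, with 0 of 24 genes called by edgeR or DESeq2. An unadjusted p under 0.05 was held by 3 of the 24, a smaller share than the 1769 of 11976 tested genes.

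Among single segments, Trbv13-1 was at 21.02, 15.4 and 17.0 CPM at 0.5 ng and at 2.91, 2.90 and 2.18 CPM at 1 ng, without overlap (log2 fold change 2.72 ± 0.45, adjusted p = 0.000288). Trbv31, which lies in inverted orientation behind the constant genes, was at 13.4, 12.5 and 7.56 CPM against 2.24, 1.34 and 0.819 CPM (log2 fold change 2.88 ± 0.62, adjusted p = 0.00874). Trbv16 was at 20.8, 22.2 and 9.72 CPM against 4.48, 4.91 and 3.001 CPM (log2 fold change 2.07 ± 0.43, adjusted p = 0.00621). In each of these 3 the groups did not overlap, and replicate 3 was lowest at 0.5 ng for Trbv31 and Trbv16. Trbv29 rested on very few reads at 1 ng, with 0, 0.447 and 0.546 CPM against 8.55, 4.73 and 8.64 CPM, so its fold change is loose. Tcrg-C2, a gamma chain constant gene, also rose, from 4.00 ± 0.708 to 13.7 ± 3.49 CPM (log2 fold change 1.76 ± 0.47, adjusted p = 0.0388).

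The calls on these rare transcripts were sensitive to which libraries were used. Without replicate 1 or 2 at 0.5 ng, 1 and 2 variable genes were called, and without replicate 1 or 2 at 1 ng, 2 each time. With all 4 RNA inputs in 1 fit 0 were called, and 2 at a mean of at least 10 CPM. With offsets for GC content and length 6 were called. Immunoglobulin variable genes, which B cells rearrange in the same way, had medians of 0.17 for the heavy chain and 0.01 for the kappa chain. Of 73 and 75 tested, edgeR called 0 in both, DESeq2 called 0 and 1, and 6 each had an unadjusted p under 0.05. These shares were below those of all genes, 523 of 19395 in DESeq2 and 1769 of 11976 unadjusted.

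**Figure D4:**
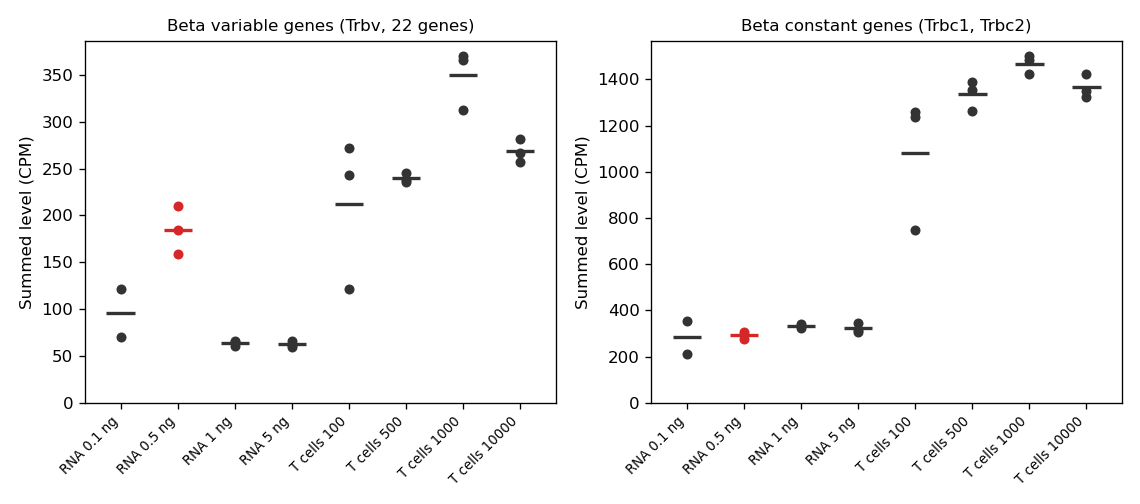
Summed levels (CPM, linear axes from 0) of beta variable genes (left) and of the beta constant genes Trbc1 and Trbc2 (right) in each library of the 4 RNA inputs and the 4 T cell inputs, with 1 point a library and a line at the mean. The red 0.5 ng points lie at 159.1 to 210.4 CPM on the left, above all 1 ng and 5 ng points, while on the right they lie at 278 to 308 CPM, beside the other RNA inputs.

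Beyond these families, the largest rises and falls among genes whose inputs did not overlap and whose larger mean reached 10 CPM were scattered single genes. Zbtb8a, a zinc finger and BTB domain gene, was at 10.3, 13.5 and 13.0 CPM at 0.5 ng and at 0.896, 0.447 and 3.27 CPM at 1 ng. It rose in every library (log2 fold change 3.02 ± 0.62, adjusted p = 0.00592), and its 5 ng mean was 3.78 CPM. Fzd7, a Wnt receptor, rose 4.22-fold (adjusted p = 0.0374) and Ncam1, a neural and NK cell adhesion molecule, 3.32-fold (adjusted p = 0.024). Stard9, a kinesin-like motor with a lipid-binding domain, was at 22.2, 23.4 and 53.5 CPM against 12.5, 13.4 and 7.64 CPM, so that replicate 3 made much of its rise (log2 fold change 1.55 ± 0.31, adjusted p = 0.00442).

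Among the falls, Mylk3, the cardiac myosin light chain kinase, was at 1.95, 4.26 and 2.70 CPM at 0.5 ng and at 14.3, 19.2 and 8.73 CPM at 1 ng (log2 fold change -2.24 ± 0.50, adjusted p = 0.0116). Tlr11, a receptor for protozoan profilin, was at 3.42, 0 and 5.94 CPM against 13.0, 19.7 and 10.4 CPM (log2 fold change -2.22 ± 0.57, adjusted p = 0.0294). Neither gene overlapped between the inputs, and both had a 5 ng mean between the other means, at 6.08 and 9.51 CPM. Atp9a, a membrane lipid flippase, fell 3.85-fold (adjusted p = 0.016), Mefv, which encodes the inflammasome sensor pyrin, 2.73-fold (adjusted p = 0.0126) and Cryl1, a crystallin-like dehydrogenase, 2.44-fold (adjusted p = 0.0194). The other 5 of the 10 largest falls under these limits, Sass6, Prpf40b, Gtpbp8, Ulbp1 and Fam196b, fell 2.23 to 3.19-fold. Hcn2, a pacemaker channel gene named after its values were seen, had 0 counts in all 3 libraries at 0.5 ng and 50 over the 3 at 1 ng. With a floor of 3 counts over the group it was at least 15.9-fold lower. Of 32 named genes that passed the test, 17, 22 and 9 no longer passed without replicate 1, 2 or 3 at 0.5 ng, and 22, 22 and 8 without replicate 1, 2 or 3 at 1 ng.

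The shares of cell type markers differed most, as a ratio, for platelet and megakaryocyte genes, at 0.0133% ± 0.00125 at 0.5 ng and 0.0170% ± 0.00168 at 1 ng (SD, n = 3 each). Of 11 lists of cell type markers, 6 had non-overlapping shares of the counts, and all 6 were lower at 0.5 ng: B cell, plasma cell, antigen presentation, neutrophil, erythroid, and platelet and megakaryocyte genes. The erythroid share was 0.420% ± 0.0110 at 0.5 ng and 0.493% ± 0.0221 at 1 ng, and the B cell share 3.67% ± 0.0151 and 3.89% ± 0.0942 (SD, n = 3 each). Not every member went that way: 9 of 18 B cell genes were above 0, with a median log2 fold change of -0.01, 3 had all 0.5 ng libraries above all 1 ng libraries, and 3 had them below. The B cell gene Ms4a1 had 1548 ± 50.0 against 1429 ± 55.4 CPM, and the plasma cell gene Jchain 1772 ± 24.1 against 1598 ± 94.0 CPM, both without overlap and neither passing edgeR's test. The macrophage and monocyte share was 0.542% ± 0.0121 and 0.545% ± 0.00545. After adjustment over the 11 lists the lowest exact permutation p was 0.183, and the design cannot reach 0.05. In edgeR's test the called members of these lists were on the B cell, antigen presentation and erythroid lists. DESeq2 also called 3 of 14 red pulp macrophage genes lower and 1 of 12 plasma cell genes higher, against 227 and 296 of 19395 genes. On 11 of all the lists of markers and processes (cytotoxic T and NK, neutrophil, platelet and stroma markers, and genes of the cell cycle, immediate early and interferon responses, chaperones, glycolysis, the proteasome and histones) edgeR called 0 of 215 genes tested. DESeq2 called 6 of them, against 523 of 19395 genes, and 27 had an unadjusted p under 0.05, against 1769 of 11976 tested genes. These shares were near those of all genes.

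Spread between replicates was larger at 0.5 ng. The biological coefficient of variation, the square root of edgeR's common dispersion over the same genes, was 0.219 at 0.5 ng and 0.151 at 1 ng. Its square, which is the variance beyond counting, was 0.0478 and 0.0229. Genes were then grouped by their level in the 5 ng libraries. The median coefficient of variation over the 3 libraries was 75.04% at 0.5 ng and 59.8% at 1 ng for genes at 1 to 5 CPM, and 38.5% and 32.0% at 5 to 10 CPM. It was 20.8% and 16.8% at 10 to 50 CPM, 11.4% and 9.38% at 50 to 200 CPM, and 5.76% and 5.46% at 200 CPM and over. In percentage points the gap was widest for rare transcripts. The share of genes with a larger coefficient at 0.5 ng did not follow that order. From the lowest to the highest level it was 60.1%, 57.4%, 60.8%, 60.6% and 52.3%.

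Drop-out followed the same order. Of 3189 genes at 1 to 5 CPM in the 5 ng libraries, 1187 (37.2%) had no count in at least 1 library at 0.5 ng and 836 (26.2%) at 1 ng. Of 1269 genes at 5 to 10 CPM these numbers were 20 and 2, and of 4773 at 10 to 50 CPM they were 2 and 0. No gene at 50 CPM or more was missing from any of the 6 libraries. After each library was thinned to 3665052 counts, 15260, 15468 and 15407 genes had a count at 0.5 ng and 15758, 15839 and 15525 at 1 ng. All 0.5 ng libraries had fewer, by 329 genes on average (15378.3 ± 107 and 15707.3 ± 163, SD, n = 3 each, exact permutation p = 0.1, two-sided). With at least 10 counts asked for, the order turned, with 11857.3 ± 38.6 genes at 0.5 ng and 11772 ± 35.9 at 1 ng.

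**Figure D5:**
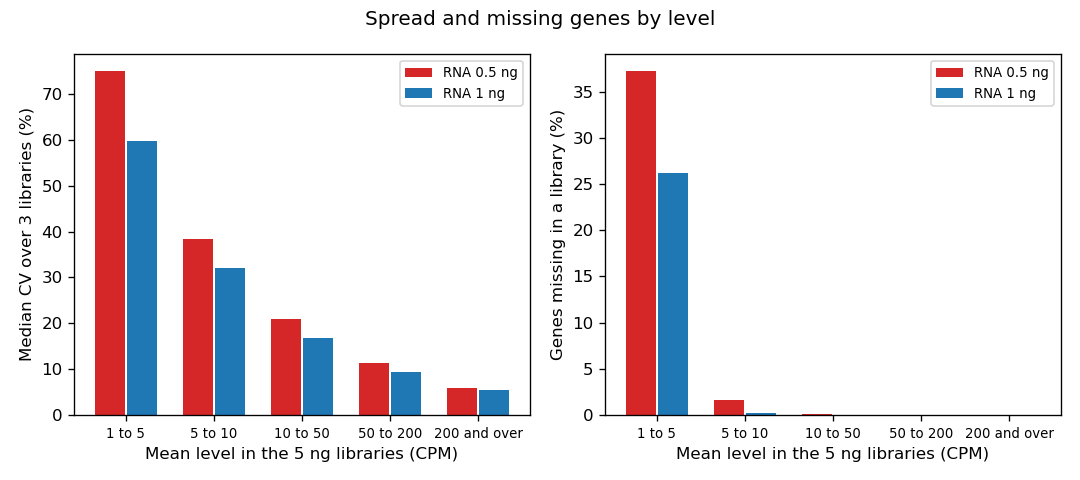
Bars give, for genes grouped by their mean level in the 5 ng libraries (CPM), the median coefficient of variation over 3 libraries (left, %) and the share of genes with no count in at least 1 of 3 libraries (right, %) at 0.5 ng (red) and 1 ng (blue). The bars at 0.5 ng are higher at 1 to 5 CPM, at 75.04% against 59.8% and 37.2% against 26.2%, and the bars of both inputs come close at 200 CPM and over.

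Whole profiles remained alike. Across all genes, Pearson's r of log2(CPM + 1) lay between 0.9695 and 0.9702 for pairs of 0.5 ng libraries, between 0.978 and 0.980 for pairs of 1 ng libraries, and between 0.9701 and 0.9722 for mixed pairs. The ranges of the 0.5 ng pairs and of the mixed pairs overlapped. Against the mean of the 5 ng libraries, r was 0.9797, 0.9802 and 0.9799 at 0.5 ng and 0.9871, 0.9876 and 0.9851 at 1 ng. All 0.5 ng libraries were lower (exact permutation p = 0.1, two-sided, the smallest possible). These values are across genes, which are not independent replicates.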

How the data were processed

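RNA was measured by sequencing in 23 mouse libraries, of which 3 at 0.5 ng and 3 at 1 ng input were compared. The authors deposited 1 table of raw counts for 22488 gene symbols. Per the submitters' processing notes, HISAT2 2.1.0 and featureCounts (version not given in the sources used here) were used with the build mm8. No genome of that build was used, so no coordinates are given. Transcript length and GC content came from the longest GENCODE M21 transcript with the same symbol, found for 99.6% of genes.

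Groups came from the input labels. Counts were fitted with edgeR 4.0.16 (R 4.3.3), with TMM scaling and the default filterByExpr filter applied to the 6 libraries. The quasi-likelihood test was used, and p-values were adjusted by Benjamini-Hochberg across every gene tested (threshold 0.05). The script was tested on simulated data. Single values were compared with exact permutation tests. Correlations used log2(CPM + 1). Named genes were the 10 largest rises and 10 largest falls with non-overlapping groups and at least 10 CPM, the 3 highest of each list and the 5 highest of all, of which the text gives those the results turn on; a few others were named because a count was small or after their values were seen. Alternatives covered the test, scaling, filters, halved counts, the replicate block, the libraries fitted and, added after seeing the data, GC and length offsets and limma 3.58.1 group weights. The comparison, its gene lists and its members were chosen with earlier results of these data known. Counting error alone is covered by the floor.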

Additional observations from a re-analysis of the deposited data

How the results depend on the processing

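No called gene of the 173 changed direction except 1 under GC and length offsets. The number called was 523 with DESeq2 1.42.0 (170 shared), 4 with all 4 RNA inputs in 1 fit, 99 with GC and length offsets (84 shared), and 21 to 194 when 1 library was left out. It was 166 with DESeq2 size factors or library totals, 199 without a filter, 218 at 10 CPM or more, 230 with halved counts and 220 with group weights. Ribosomal protein genes called lower numbered 41 with DESeq2, 1 with all inputs, 11 with the offsets and 2 to 27 without 1 library. Mitochondrially encoded genes called higher numbered 1 with all inputs, 2 with the offsets and 3 to 7 without 1 library. T cell receptor variable genes called higher numbered 2 at 10 CPM or more, 0 with all inputs and 1 to 6 without 1 library. The difference in detected genes was -329, -1.67 at 5 or more counts and 85.3 at 10 or more. The difference in r to the 5 ng mean was -0.00665, and -0.00790 and -0.00470 with pseudocounts of 0.5 and 5 and -0.0140 for genes of 10 CPM or more. The coefficient of variation from the dispersion was 0.302 and 0.175 at 0.5 and 1 ng without a filter, and 0.175 and 0.129 at 10 CPM or more. Of 464 list medians under the alternatives, 411 moved by less than the replicate spread and 53 by more. The causes of these shifts were not tested.

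Same-numbered libraries did not deviate together across genes (correlations 0.0256, 0.0204 and 0.00561), and the labels state no pairing. With 3 libraries an input, these values cannot show that the number carries nothing. With the replicate number as a block, 241 genes were called, including all 173.

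The 3 libraries of each input limit every exact test to p = 0.1, and the even counts mean that reads are not independent molecules.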

Other observations

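The first gene groups below were picked out after their values were seen and are given as descriptions with no test of the group. Of 359 tested zinc finger genes with symbols starting in Zfp, Zscan, Zbtb or Zkscan, which encode mostly DNA-binding repressors, 8 rose at 0.5 ng (2.23%, against 0.752% of all tested genes). Their median log2 fold change was 0.09 and the median GC content of their transcripts 44.8%. Together they held 13783, 13624 and 13594 CPM at 0.5 ng and 12815, 12797 and 13245 CPM at 1 ng, so that all 0.5 ng libraries were higher and replicate 3 was the nearest of the 1 ng libraries. The 5 ng libraries averaged 12725 CPM.

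The predicted genes Gm10800, Gm10801 and Gm21738, whose transcripts have a median GC content of 35.2%, all rose. Gm10800 was at 4638, 5320.3 and 5509 CPM at 0.5 ng and at 3646, 3779 and 4189.6 CPM at 1 ng, without overlap (log2 fold change 0.41 ± 0.04, SE, adjusted p = 1.1e-08 in edgeR's quasi-likelihood test). Its level at 5 ng, 4826 ± 694 CPM (SD, n = 3), lay between these means, and the 2 libraries at 0.1 ng held 28019 and 31275 CPM. Summed over the 3 genes, the means were 6021 CPM at 0.5 ng, 4476 at 1 ng and 5592 at 5 ng. The 5 ng mean was thus nearer to that at 0.5 ng, and the libraries of these inputs overlapped. These genes are close copies of one another, so reads may be split between them. Summed olfactory and vomeronasal receptor genes, which spleen is not known to use, were at 0.0315%, 0.0359% and 0.0298% of counts at 0.5 ng. At 1 ng they were at 0.0192%, 0.0176% and 0.0210%, without overlap. Of the 6 tested, edgeR called 0, and 1 had an unadjusted p under 0.05, against 1769 of 11976 tested genes. DESeq2 called 1 of 738, against 523 of 19395 genes. Heavy chain variable genes summed to 0.143% ± 0.00318 at 0.5 ng, 0.127% ± 0.00281 at 1 ng and 0.151% ± 0.00347 at 5 ng, so that the 1 ng libraries were the lowest of these 3 inputs.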
